A study of Mus musculus with 2 samples.

Results

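MicroRNAs known from white blood cells were examined in small RNA of gastrocnemius, a calf muscle of mainly fast fibres. The members were the 7 microRNA genes that carry the names Mir142, Mir142b, Mir223, Mir150, Mir155, Mir146 and Mir146b in GENCODE mouse M21, out of 2202 microRNA genes in the files. They were picked by name, as genes known from myeloid and lymphoid cells, when earlier results of these data were already known. The series has 1 group of 2 libraries, from female B6CASTF1/J mice at an age of 2 months, labelled biological replicates 1 and 2. B6CASTF1/J is the first-generation cross of the C57BL/6J and CAST/EiJ strains, and no treatment, transgene or second genotype is named. The females are numbered apart in the labels, yet 1 donor code covers both libraries, so any difference between them may be technical. The reads were of RNA under 30 nt from whole muscle, and the labels name no perfusion or cell sort. Values below may therefore hold resident and blood-borne cells together. In bulk tissue, fewer cells of a type and less RNA per cell cannot be told apart.

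Mature microRNAs are short RNAs cut from a hairpin precursor, and they lower the output of messenger RNAs that match bases 2 to 8 of the microRNA, the seed. miR-142 is made throughout the blood lineages. miR-223 is known from granulocytes and monocytes, and miR-150 from mature lymphocytes, where it acts on Myb. miR-155 is induced in activated lymphocytes and macrophages. miR-146a is induced by NF-κB and acts back on that pathway through Traf6 and Irak1, and miR-146b is its paralogue. In resting muscle such cells lie among the fibres, in the connective tissue and in the vessels.

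The sequences below show which of these microRNAs have the same seed and which have long stretches in common. RefSeq's table for GRCm38.p6, the assembly also called mm10, held 12 mature sequences from all 7 members, of Mir150 only miR-150-3p, and the statements on seeds and shared stretches cover these 12. Capitals mark the seed, and positions are 1-based in mm10.
miR-142a-5p, from Mir142 on the plus strand, chr11:87756867-87756887: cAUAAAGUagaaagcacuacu
miR-142a-3p, from Mir142 on the plus strand, chr11:87756903-87756925: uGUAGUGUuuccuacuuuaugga
miR-142b, from Mir142b on the minus strand, chr11:87756906-87756925: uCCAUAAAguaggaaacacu
miR-223-3p, from Mir223 on the plus strand, chrX:96242884-96242905: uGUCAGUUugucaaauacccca
miR-155-5p, from Mir155 on the plus strand, chr16:84714143-84714165: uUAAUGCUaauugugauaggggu
miR-146a-5p, from Mir146 on the minus strand, chr11:43374435-43374456: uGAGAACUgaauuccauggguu
miR-146b-5p, from Mir146b on the plus strand, chr19:46342790-46342811: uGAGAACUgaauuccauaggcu

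Of these 12 sequences, miR-146a-5p and miR-146b-5p had the same seed, GAGAACU, and none of the other 10 shared its seed with any other of the 1738 mature sequences in the table. miR-146a-5p and miR-146b-5p have the same first 17 of 22 bases. They differ at 2 positions counted from the 5′ end, G18A and U21C, with the base of miR-146a-5p first. No other member sequence shared more than 13 bases in a row with another hairpin of the table, apart from the overlapping pair Mir142 and Mir142b. Reads with more than 1 possible origin enter no gene's count, and whether this removed short reads of the Mir146 pair was not tested. Counts are given per gene, and the arms of a hairpin (5p and 3p) were not counted apart.

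The members lie at 6 places in the mm10 genome, and 4 of the 7 lie within a longer gene of the same strand. Mir142 (ENSMUSG00000105196.1) is on the plus strand of chromosome 11, from 87756864 to 87756927, in an intron of the long noncoding gene Mir142hg. Mir142b (ENSMUSG00000065420.2), of the minus strand, reaches from 87756841 to 87756955 and encloses it. Mir223 (ENSMUSG00000076066.1) is on the X chromosome, from 96242817 to 96242926, in an exon of the noncoding gene F630028O10Rik. Mir155 (ENSMUSG00000065397.1) is on chromosome 16, from 84714140 to 84714204, in an exon of Mir155hg, its noncoding host. Mir146b (ENSMUSG00000070127.2) is on chromosome 19, from 46342762 to 46342870, in an intron of the protein-coding gene Mfsd13a. No longer gene of the same strand was annotated over Mir150 (ENSMUSG00000065495.1), on chromosome 7 from 45121757 to 45121821. The same held for Mir146 (ENSMUSG00000065601.1), a minus-strand gene of chromosome 11 (43374397 to 43374461).

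The own-strand counts of all microRNA genes summed to 1950204 in replicate 1 and 2291821 in replicate 2. Levels are given in CPM, counts scaled to a common library total of 1000000, so that 1 count was worth 0.513 and 0.436 CPM. A level of 3 counts, 1.54 and 1.31 CPM, was taken as the limit, or floor, for a count of 0. Detection meant reaching a minimum of 10 counts in both libraries, which 278 of the 2202 genes and 5 of the 7 members reached. The skeletal muscle microRNA Mir206 had 26708 and 41933 CPM and was among the 12 most abundant genes of each library, which checks the tissue label.

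Together the 7 genes held a small share of the own-strand counts of all microRNA genes. Reads aligned to several places, 70.1% and 72.3% of the reads listed, are not in that total. The share was 0.368% in replicate 1 (7174 counts, 95% interval by the exact Clopper-Pearson method 0.359 to 0.376). In replicate 2 it was 0.275% (6292 counts, interval 0.268 to 0.281), and the mean was 0.321% ± 0.0660 (SD, n = 2). All intervals reflect the counting error of reads alone. Reads copied by PCR do not each stand for a separate molecule, so the intervals may be too narrow for molecules. Mir155 and Mir150 were the most abundant members and had close values in both libraries, Mir223, Mir142 and Mir146 were lower in replicate 2, and Mir146b and Mir142b were at or near 0.

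Mir155, known from activated lymphocytes and macrophages, had the highest level of the members. Which cells of the muscle the members' reads came from was not tested. Mir155 had 2111 counts or 1082 CPM in replicate 1 (exact Poisson 95% interval 1037 to 1130) and 2678 counts or 1169 CPM in replicate 2 (1125 to 1214). Its mean of 1125 ± 60.8 CPM (SD, n = 2) was the 55th of all genes by mean CPM, between Mir17 (1177 CPM) and Mir99b (1082 CPM). Replicate 2 was thus slightly higher for Mir155.

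Mir150, known from lymphocytes, followed with 1676 counts or 859 CPM in replicate 1 (819 to 902) and 1964 counts or 857 CPM in replicate 2 (819 to 896). The values overlap within counting error, and the mean was 858 ± 1.72 CPM (SD, n = 2). Its neighbours by mean CPM were Mir652 (917 CPM) and Mir20a (840 CPM), and Mir652 had a wider spread, with 1159 and 674 CPM.

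Mir223, known from granulocytes and monocytes, had 1284 counts or 658 CPM in replicate 1 (623 to 695) and 510 counts or 223 CPM in replicate 2 (204 to 243). The mean of 440 ± 308 CPM (SD, n = 2) carries the widest spread of the 7 members. By rank, Mir223 was the 71st gene in replicate 1 and the 112th in replicate 2. The gene next above it by mean CPM, Mir208b, a microRNA of the slow myosin gene Myh7, spread the other way, with 122 and 761 CPM.

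Mir142, found throughout the blood lineages, had 1075 counts or 551 CPM in replicate 1 (519 to 585) and 489 counts or 213 CPM in replicate 2 (195 to 233). Its mean was 382 ± 239 CPM (SD, n = 2), between Mir374b (385 CPM) and Mir92-1 (378 CPM). Those neighbours differed less between the libraries, with log2 ratios of 0.36 and −0.18, replicate 2 over replicate 1. Mir142 was the 75th gene in replicate 1 and the 114th in replicate 2.

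Mir146, the gene of miR-146a, had 1024 counts or 525 CPM in replicate 1 (493 to 558) and 650 counts or 284 CPM in replicate 2 (262 to 306). Its mean was 404 ± 171 CPM (SD, n = 2), between Mir223 and Mir376c (400.1 CPM). The libraries did not overlap within counting error for Mir223, Mir142 or Mir146, and replicate 2 was the lower one each time.

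**Figure D1:**
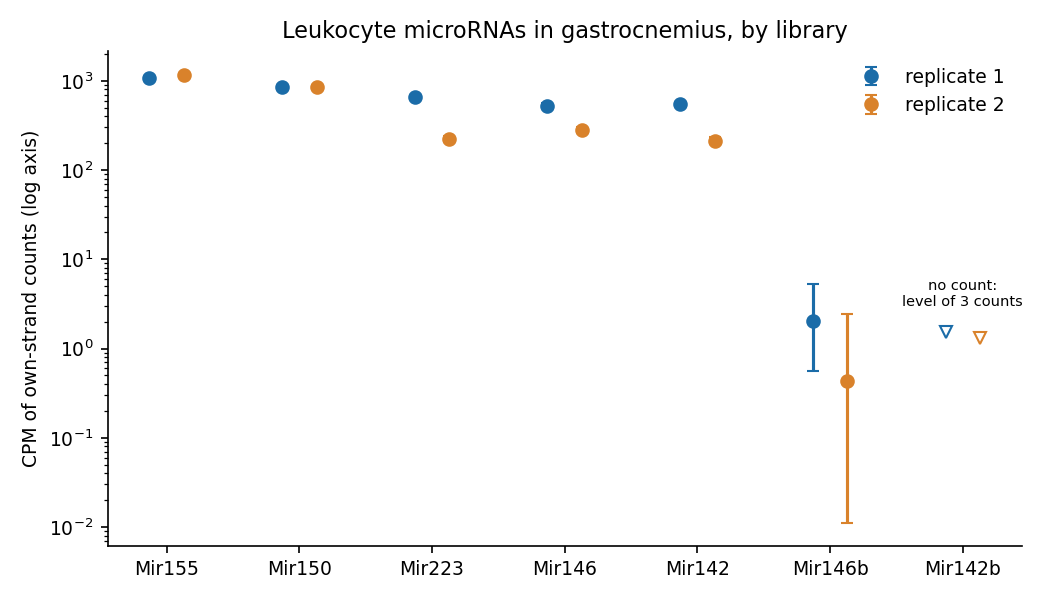
CPM of own-strand counts (log axis) of the 7 leukocyte microRNA genes in replicate 1 and replicate 2, with exact Poisson 95% intervals as bars. Mir155 and Mir150 lie between 857 and 1169 CPM in both libraries, Mir223, Mir146 and Mir142 are higher in replicate 1, and open triangles for Mir142b mark the level of 3 counts, since it had no count.

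The order of the 5 detected members by mean CPM was Mir155, Mir150, Mir223, Mir146 and Mir142. Mir155 was above Mir150 in both libraries, with count ratios of 1.26 (95% interval 1.18 to 1.34) and 1.36 (1.29 to 1.45), and their CPM ranges did not overlap. Mir150 was above Mir223 by 1.31 (1.21 to 1.40) and 3.85 (3.49 to 4.25), again with separate ranges. Mir223, Mir146 and Mir142 did not differ beyond their spread. Mir223 had more reads than Mir146 in replicate 1 (ratio 1.25) and fewer in replicate 2 (0.785). Mir146 and Mir142 were within counting error in replicate 1 (ratio 0.953, 0.874 to 1.04), while Mir146 was higher in replicate 2 (1.33, 1.18 to 1.498). A read of this size spans a whole mature microRNA, so counts were not divided by length above. Per base of annotated gene, Mir155 and Mir150 were still first, at 17.3 and 13.2 CPM per nt, and Mir223, with a gene of 110 nt, came last at 4.00, below Mir146 (6.22) and Mir142 (5.97).

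The 2 genes at the Mir142 locus showed all of their reads on 1 strand. The hairpins below are printed because each file column counts this place differently, and capitals mark the mature parts.
Mir142, plus strand, chr11:87756864-87756927: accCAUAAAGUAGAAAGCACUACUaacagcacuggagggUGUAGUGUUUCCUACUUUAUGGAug
Mir142b, minus strand, chr11:87756841-87756955: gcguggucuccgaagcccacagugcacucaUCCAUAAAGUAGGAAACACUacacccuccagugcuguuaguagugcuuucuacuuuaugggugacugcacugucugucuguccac

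All 20 bases of miR-142b are the reverse complement of bases within miR-142a-3p, so strand alone separates their reads. In the column of own-strand counts Mir142 had 1075 and 489 reads and Mir142b had 0 in both libraries. In the column of opposite-strand counts the values were exchanged, with 1075 and 489 for Mir142b and 0 for Mir142. In the column that ignores strand both genes stood at 0, since reads over both genes are listed there as ambiguous. By the upper end of the exact 95% interval, Mir142b could hold up to 0.343% of the locus in replicate 1 and 0.752% in replicate 2. Set against a floor of 3 counts per library for Mir142b, Mir142 was 358-fold higher in replicate 1 and 163-fold higher in replicate 2. Of the other members, none had a read on the opposite strand, and their counts were the same with and without strand. Among the 32 places in the files where microRNA genes lie on opposite strands, 22 had at least 20 counts over both libraries on 1 strand, and 14 of these 22 had none on the other.

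**Figure D2:**
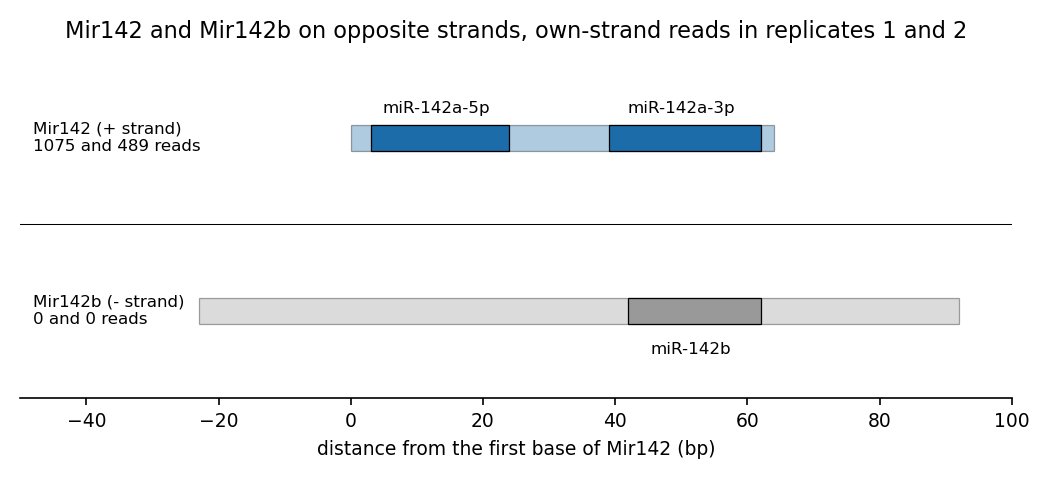
Map of Mir142 (plus strand, above the line) and Mir142b (minus strand, below) by distance in bp from the first base of Mir142, with hairpin genes as pale boxes and mature microRNAs as dark boxes. Mir142 had 1075 and 489 own-strand reads in replicates 1 and 2 and Mir142b had 0 and 0, and miR-142b lies opposite miR-142a-3p.

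Mir146b, the paralogue of Mir146, was close to the limit of detection. It had 4 counts or 2.05 CPM in replicate 1 and 1 count or 0.436 CPM in replicate 2, a mean of 1.24 ± 1.14 CPM (SD, n = 2). The CPM ratio of replicate 1 to replicate 2 was 4.70 with an interval of 0.465 to 231, so no difference was detectable at this depth. Of the reads placed in either paralogue, Mir146b held 0.389% in replicate 1 (0.106 to 0.993) and 0.154% in replicate 2 (0.00389 to 0.853). Mir146 thus had 256 times the reads of Mir146b in replicate 1 (99.7 to 941) and 650 times in replicate 2 (116 to 25713). Both intervals lie well above 1.

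A test of each gene between replicate 2 and replicate 1 describes these 2 libraries, not a condition, and has no replicate check. The test was a two-sided exact binomial test on all 278 detected genes with TMM scaling, a library scaling based on the bulk of the genes, and Benjamini-Hochberg adjustment. A gene was called at an adjusted p under 0.05 and at least 2-fold. Of the 5 detected members 2 were called, Mir223 and Mir142, both lower in replicate 2. The same rule called 33 genes or 11.9% of all detected genes, and 26 genes or 9.35% as lower in replicate 2. Mir223 was 2.89-fold lower in replicate 2, a log2 ratio of −1.53 (SE 0.0755, counting error, adjusted exact binomial p = 7.73e-101). Mir142 was 2.52-fold lower, a log2 ratio of −1.33 (SE 0.0787, adjusted exact binomial p = 6.04e-69).

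The other 3 detected members missed the fold minimum. Mir146 was 1.81-fold lower in replicate 2, a log2 ratio of −0.85 with an interval of −0.998 to −0.711 (adjusted exact binomial p = 3.19e-32). Mir155 had a log2 ratio of 0.14 (interval 0.06 to 0.23, adjusted exact binomial p = 0.00127). Mir150 had 0.03 (−0.06 to 0.13, adjusted exact binomial p = 0.599). With no fold minimum, 4 of the 5 members passed, all but Mir150, as did 154 genes or 55.4% of all detected genes, so passing that rule is common at this depth. The members' median log2 ratio was −0.85, with 3 of 5 lower in replicate 2, beside a median of −0.03 over all detected genes, of which 136 of 278 were higher.

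**Figure D3:**
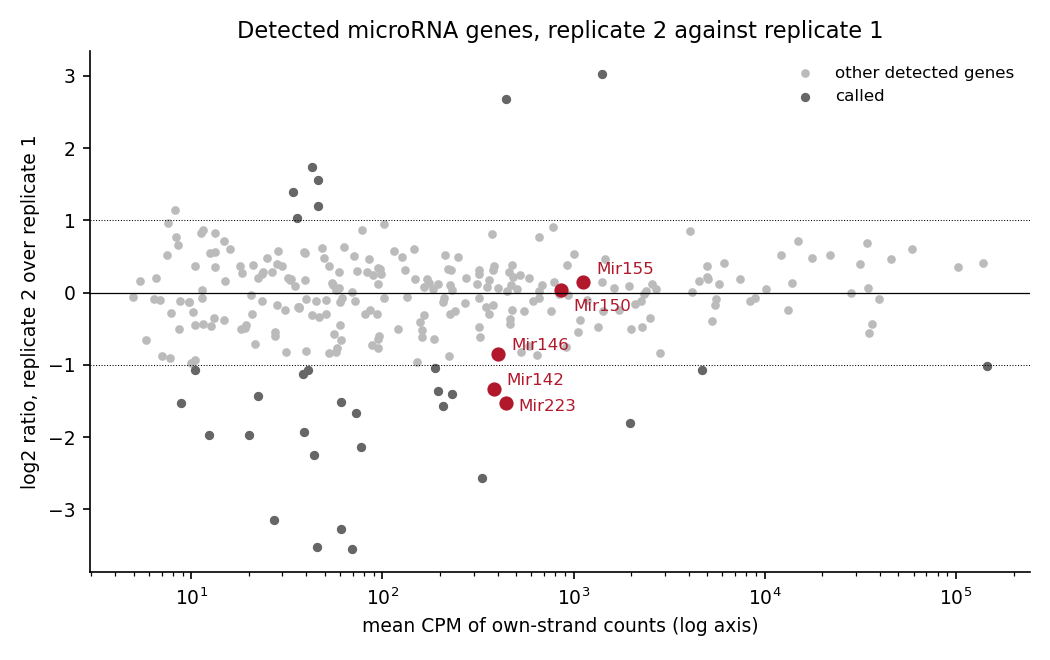
Log2 ratio of replicate 2 over replicate 1 against mean CPM (log axis) for the 278 detected microRNA genes, with called genes in dark grey, the detected leukocyte microRNAs in red and dotted lines at 2-fold. Mir223 (−1.53) and Mir142 (−1.33) lie below the lower line, Mir146 (−0.85) above it, and Mir155 (0.14) and Mir150 (0.03) near 0.

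The calls for Mir223 and Mir142 were lost once the estimated spread between the libraries was added to counting error. edgeR put the coefficient of variation between the libraries beyond counting error at 0.352. This value was estimated from the same 2 libraries taken as 1 group, so it holds the differences that were then tested. Loss of calls with it is thus partly built in, and it is no independent check. With that value the edgeR exact test called 0 of the 5 members (Mir223 adjusted p = 0.674 and Mir142 adjusted p = 0.93) and 7 genes or 2.52% of all. At an unadjusted p under 0.05 it had 1 of the 5, Mir223, and 19 genes or 6.83% of all. With an assumed value of 0.2 it called both Mir223 (adjusted p = 0.00657) and Mir142 (adjusted p = 0.0221), among 22 genes or 7.91% of all.

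Ratios between members do not depend on how the libraries are scaled. They rearrange the same counts as the log2 ratios above, so they are no separate support for them. Over the 10 pairs of detected members, 8 had an exact 95% interval of the change that left out 1. Pairs of other genes were not counted. The 55.4% of all detected genes that passed without a fold minimum is a share of single genes under another test. Whether the count of pairs is particular to the members was thus not tested. There were 1.31 reads of Mir150 per read of Mir223 in replicate 1 and 3.85 in replicate 2, a change of 2.95-fold (2.61 to 3.34). For Mir155 per Mir223 the change was 3.19-fold (2.84 to 3.60), from 1.64 to 5.25. For Mir155 per Mir142 it was 2.79-fold (2.47 to 3.15) and for Mir150 per Mir142 2.58-fold (2.27 to 2.93). Mir146 shifted less than Mir142, by 1.40-fold per read of Mir142 (1.20 to 1.62). It also shifted less than Mir223, with a change of 0.626 for Mir223 per Mir146 (0.541 to 0.723). Changes of 1 stayed inside the interval for Mir155 per Mir150 (1.08, 0.992 to 1.18) and for Mir223 per Mir142 (0.873, 0.751 to 1.02). The make-up of the 7 genes' counts moved accordingly. Mir155 went from 29.4% of them in replicate 1 (28.4 to 30.5) to 42.6% in replicate 2 (41.3 to 43.8), and Mir150 from 23.4% to 31.2%. Mir223 went from 17.9% (17.02 to 18.8) to 8.11% (7.44 to 8.81), Mir142 from 14.98% to 7.77% and Mir146 from 14.3% to 10.3%. Mir155 and Mir150 together made up 52.8% of the 7 genes' counts in replicate 1 and 73.8% in replicate 2.

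**Figure D4:**
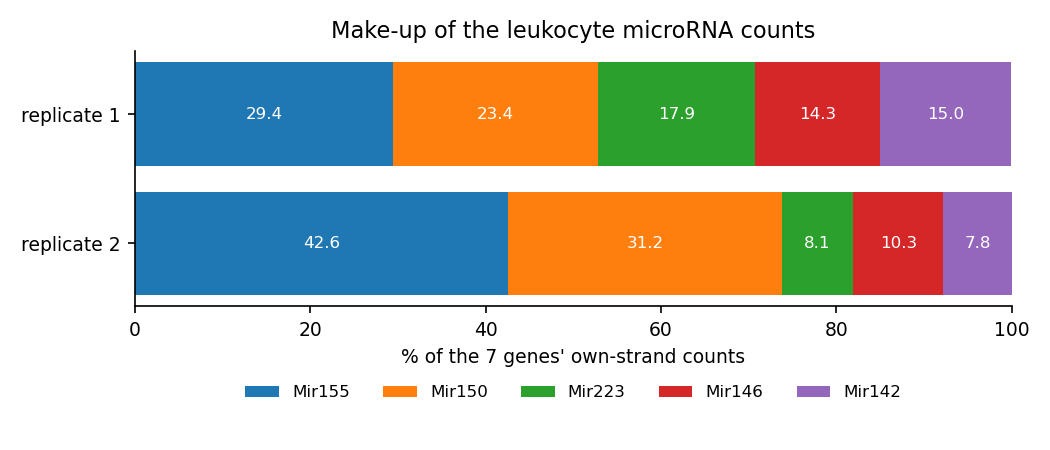
Share (%) of each of the 5 detected leukocyte microRNA genes in the own-strand counts of the 7 genes, 1 bar per library. Mir155 and Mir150 take 52.8% of the bar of replicate 1 and 73.8% of that of replicate 2, and Mir146b, at 0.0558% and 0.0159%, is too thin to see.

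Other microRNAs linked to leukocytes and inflammation went in both directions. The list had 12 genes, all in the files, of which 9 were detected, 5 with higher and 4 with lower values in replicate 2. The exact binomial rule with its 2-fold minimum called 0 of the 9, as did edgeR's exact test at the assumed and at the estimated spread, while 8 of the 9 had an unadjusted exact binomial p under 0.05 and also an adjusted one, beside the 55.4% of all detected genes given above for the adjusted p. The median log2 ratio was 0.20, and the list's share of counts was 0.201% in replicate 1 and 0.220% in replicate 2. Mir342, known from B cells and myeloid cells and carried in Evl, had 342 and 414 CPM (log2 ratio 0.31). Mir511, of macrophages and carried in the mannose receptor gene Mrc1, had 51.3 and 28.4 CPM, a log2 ratio of −0.82 with a wide interval of −1.29 to −0.35. The Mir181 genes, known from thymocytes and B cells, went both ways. Mir181a-1 had 143 and 98.2 CPM (log2 ratio −0.51) and Mir181a-2 had 55.9 and 99.5 CPM (0.86). Mir181b-2, Mir181c and Mir181d had log2 ratios of 0.37, 0.21 and 0.20, and Mir181b-1 was not detected, with 7 and 3 counts. Copies of Mir181a and Mir181b are near-identical, so their values are uncertain. Mir132, which is also neuronal, had 264 and 217 CPM, and Mir326, described in T helper cells, had 20 and 12 counts. Mir212 (12 and 9 counts) and Mir147 (1 and 0 counts), the second known from stimulated macrophages, missed the minimum.

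**Figure D5:**
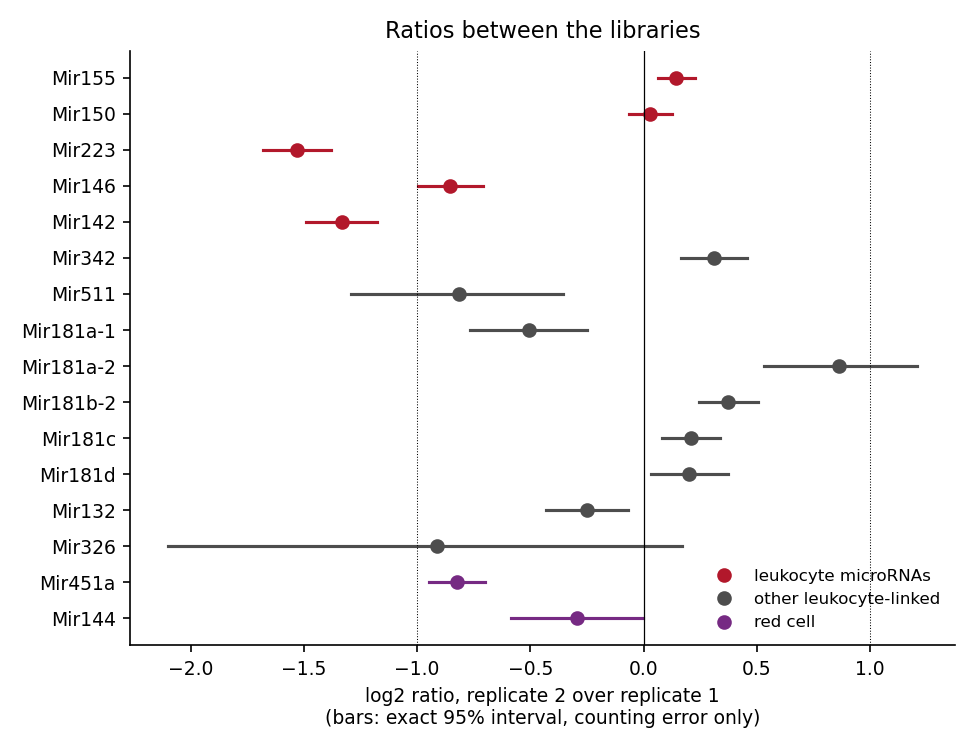
Log2 ratio of replicate 2 over replicate 1 with exact 95% intervals (counting error only) for the detected leukocyte microRNAs, the other detected leukocyte-linked microRNAs and the red cell microRNAs, with dotted lines at 2-fold. The whole intervals of Mir223 and Mir142 lie below −1, and no other interval lies wholly beyond a dotted line.

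Markers of other cell types also differed between the libraries, and their part in the ratios of Mir223, Mir142 and Mir146 was not tested. The red cell microRNAs Mir451a and Mir144, both detected, took 0.0787% of counts in replicate 1 and 0.0460% in replicate 2. Mir451a had 682 and 377 CPM, a log2 ratio of −0.82 (interval −0.95 to −0.70) close to that of Mir146, and Mir144 had 105 and 83.3 CPM (−0.29). Neither was called. The smooth muscle list, with 2 of 3 genes detected, went from 20.3% to 9.73% and the epithelial list, with 2 of 7 detected, from 0.0338% to 0.0164%. In the other direction, the striated muscle list (8 of 9 detected) went from 2.74% to 4.56%. Mir206 alone held 52086 of its 53431 counts in replicate 1 and 96104 of 104421 in replicate 2. Reads aligned to several places enter no gene, so this share may leave out reads of Mir1a-1, Mir1a-2, Mir133a-1 and Mir133a-2. How many such reads there were was not tested. The endothelial list (1 of 2 detected) went from 12.1% to 15.7%. The fibroblast list, with 3 of 4 detected, had 0.149% and 0.151%, mostly from Mir214 (2631 and 3330 counts). Its member Mir199b was called 3.18-fold lower in replicate 2, a log2 ratio of −1.67 (adjusted exact binomial p = 3.01e-20). The smooth muscle genes Mir143 (log2 ratio −1.02) and Mir145a (−1.08) were called lower too. Of the striated muscle genes 2 were called higher in replicate 2, among them Mir499 (log2 ratio 3.02). No gene of the endothelial or epithelial list was called. A scaling of counts to a library total ties these shares to each other, and the ratios between members given above are free of it.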

How the data were processed

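Small RNA under 30 nt was sequenced from gastrocnemius in 2 libraries of 1 group. The authors deposited raw counts of reads per microRNA gene for either strand, the own strand and the opposite strand, assigned to GENCODE mouse M21 on mm10, per the deposited notes. The aligner is not given in the sources used here, nor is the counter. Rows that name no gene, among them reads aligned to several places (70.1% and 72.3% of reads listed), stayed out of library sizes and tests. Own-strand counts were used, with a minimum of 10 in each library, TMM scaling (edgeR 4.0.16), a prior of 0.5 counts for log2 ratios, and exact binomial tests over all detected genes. DESeq2 1.42.0 gave alternative size factors, and R 4.3.3, Python 3.11.15, scipy 1.17.1 and pandas 2.3.3 were used. The quasi-likelihood test was not run, since there is no second group. P-values measure counting error between these libraries only. The test was checked on data simulated with counting error alone, so that check does not cover spread between libraries. All 7 genes were named, with every gene of the other leukocyte list, up to 2 genes of each further list and the detected genes next above and below each member in mean CPM. Members and lists were chosen with earlier results of these data known. Alternatives changed the scaling, count minimum, fold minimum, strand, denominator, length, dispersion and libraries.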

Additional observations from a re-analysis of the deposited data

Results flagged for a closer look

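The opposite-strand column, which the comparisons did not use, gave Mir142b 1075 reads in replicate 1 and 489 in replicate 2, above the limit of 3 counts. These equal the own-strand counts of Mir142, so they are the same reads seen from the other gene and no further signal. Multiply aligned reads, which enter no gene, were 70.07% of the reads listed for replicate 1 and 72.33% for replicate 2, and how many came from these 7 genes was not tested. Groups of 2 libraries are too small to look for single outlying samples.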

How the results depend on the processing

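The log2 ratios of Mir223, Mir142 and Mir146 kept their sign under every alternative that gave a value, and Mir142 has none on either-strand counts, where it stands at 0. Library sizes from all reads listed shifted the median of all genes by −0.41 (log2), called 57 genes, 53 of them lower in replicate 2 (93.0% against 78.8%), put Mir155 at −0.27 and Mir150 at −0.38, and called Mir146 at −1.27, with 3 members in all. Scaling to library totals put Mir150 at −0.0042. Without a fold minimum 154 genes were called, 85 lower, with 4 members, and at 1.5-fold 67, 48 lower, with 3 members, Mir146 among them. A minimum of 30 counts left 17 lower calls, with fewer genes tested. With the estimated dispersion 7 genes were called, 5 lower, and 0 members. On either-strand counts 1 member was called. Per gene length 2 of 5 members kept their place in the order, and 3 of 5 did so in either library alone. CPM levels depend on the denominator: over all reads listed, Mir155 had a mean of 205 and Mir142 of 74.1, and without the 10 most abundant genes 3415 and 1177. Of 35 mean CPM values under alternatives, 14 moved by more than 1 SD. Those from 1 library alone could not, since each of 2 values lies within 1 SD of their mean, and Mir142b stayed at 0. The total of calls lay between 22 and 48 under the remaining alternatives. No paired analysis was possible because there is 1 group. With 2 libraries under 1 donor code, the spread between animals is not known, and depth limits Mir146b and Mir142b.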
